A study of Mus musculus with 9 samples.

Results

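The middle stage of beige adipocyte differentiation was compared with the midpoint of its start and its end, to separate what was particular to day 4 from what was part of a steady course between day 0 and day 8. The measure is the midpoint difference: the mean log2 level of a gene at day 4 minus the average of its mean log2 levels at day 0 and day 8. Because 4 days separate neighbouring stages, a gene that rose or fell at a constant rate on the log2 scale has a midpoint difference of 0, and a value of 1 places day 4 at 2-fold above the straight line. Of the 55359 genes in the table, 14714 had enough counts to be tested, and these held at least 99.95% of the counts of every library. Another 28536 genes had 0 counts in all 9 libraries.

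The cells were mouse preadipocytes of a subcutaneous depot, inguinal white adipose tissue, and the assay was ribosome profiling, which sequences the mRNA fragments that ribosomes protect from nuclease. Day 0 cells were not induced. Day 4 and day 8 cells had received a medium with dexamethasone (a glucocorticoid), 3-isobutyl-1-methylxanthine (a phosphodiesterase inhibitor that raises cyclic AMP), indomethacin (a cyclooxygenase inhibitor), insulin, triiodothyronine (T3, thyroid hormone) and rosiglitazone (an agonist of the fat cell regulator PPARγ). After 2 days the first 3 agents were withdrawn. Counted from the start of induction, day 4 cells had then spent 2 days and day 8 cells 6 days in maintenance medium, but where the labels start counting is not stated. Each group had 3 libraries, with totals from 30823028 to 38994892 counts. The labels do not say whether these came from separate animals or cultures. P-values therefore reflect the spread from library to library, which may be technical. The strain, age and sex of the mice are not given in the labels, and cultures were sequenced in bulk, so fewer cells of a kind and less RNA per cell cannot be told apart. A footprint count depends both on how much of an mRNA there is and on how many ribosomes it carries.

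Fat cell differentiation is a cascade in which an early hormonal pulse leads to PPARγ and C/EBPα, which then maintain the genes of lipid storage. Beige fat cells add a heat-producing program, with uncoupling protein 1 in dense mitochondria. Preadipocytes at the start are fibroblast-like cells rich in actin fibres and matrix, much of which is lost as the cells round up and fill with lipid.

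By day 4 the median of the 22 tested adipocyte identity genes had covered 102% of its log2 change between day 0 and day 8. For the 24 thermogenic and beige genes called between these ends the median was 75.1%. Ucp1, uncoupling protein 1, had covered 44.8% and Cidea, a marker of brown and beige fat, 27.9%. By edgeR's test the midpoint difference of Ucp1 could not be told from 0 (adjusted p = 0.53). Among all tested genes, 5575 (37.9%) had a midpoint difference that passed edgeR's quasi-likelihood test at a Benjamini-Hochberg adjusted p under 0.05. Of these, 3291 (22.4% of genes tested) lay above the midpoint, with a median of 0.83, and 2284 (15.5%) lay below it, with a median of -0.75. The median over all tested genes was 0.02. All 3 day 4 libraries lay on the called side in 3213 of the 3291 genes above and in 2284 of the 2284 genes below. The calls were made from these same libraries, so these counts describe the calls and lend them no support. Genes that rose to day 4 and then fell, called peaks here, made up 5.75% of genes tested, and 7 of 18 glucocorticoid-induced genes were peaks. Genes that fell and then rose, called dips, made up 4.04%. The lists of interferon response, cytokine, ATF4 target and endoplasmic reticulum stress genes had 16 of 24, 14 of 25, 13 of 24 and 11 of 23 members below the midpoint, with 7, 5, 7 and 4 dips.

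Both counts depend on scaling, since the day 4 libraries had the lowest composition factors (0.910 to 0.956, against 1.01 to 1.06 in the others). With library totals in place of these factors, 2456 genes were called above and 3478 below, the share above went from 59% to 41.4%, and the median over all genes moved to -0.13. The day 4 replicate 2 library lay nearer the midpoint than the other two: its median deviation was 0.61 for genes called above and -0.58 for genes called below, against 0.88 and 0.93, and -0.72 and -0.86, in replicates 1 and 3. On the leading component of variation day 4 replicate 2 lay towards day 0, at 12.8 against 64.8 and 65.4 in replicates 1 and 3. On the next component it was the furthest of the day 4 libraries from the other groups, at 60.2 against 36.3 and 54.0. Day 8 replicate 3 likewise lay nearer day 4 and day 0 on the leading component. Without these 2 libraries 4005 genes were called above and 3235 below, while without day 4 replicate 3 the counts were 2402 and 1241.

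**Figure D1:**
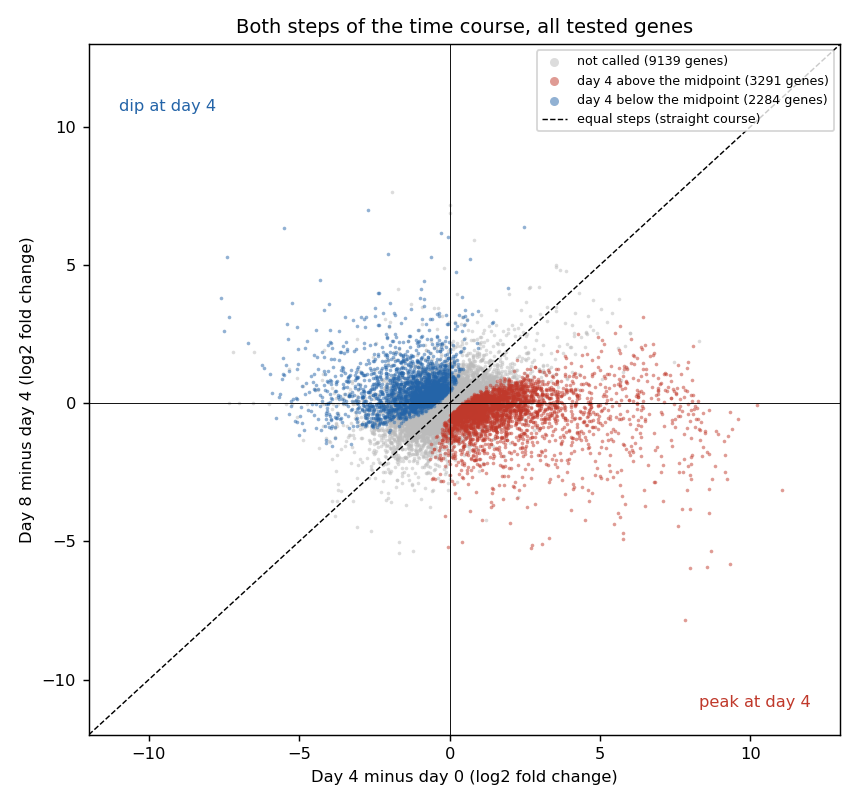
Each point is 1 of the 14714 tested genes, with its log2 fold change from day 0 to day 4 on the x axis and from day 4 to day 8 on the y axis, coloured by the call of the midpoint difference. Genes called above the midpoint (3291, red) lie below the dashed line of equal steps, and genes called below it (2284, blue) lie above that line; the lower right quadrant holds peaks and the upper left quadrant holds dips.

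The called genes fell into a few shapes, read from the 2 steps. The steps share the day 4 libraries with the midpoint difference, so they describe it and lend it no support. Of all tested genes, 29.8% were higher and 28.3% lower at day 4 than at day 0, while 14.7% were higher and 17.1% lower at day 8 than at day 4. Most genes called above had risen by day 4 and were not called between day 4 and day 8 (1861 genes, 56.5%). Peaks, which rose in the first step and fell in the second, numbered 846 (25.7% of the genes above and 5.75% of genes tested). Another 381 were not called in the first step and fell in the second. Below the midpoint, 1264 genes (55.3%) fell by day 4 and were not called afterwards, 594 (26% of these and 4.04% of genes tested) were dips that fell and then rose, and 369 (16.2%) were not called in the first step and rose in the second.

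A day 4 level beyond every day 0 and day 8 library was seen in 811 of the 846 peaks and 578 of the 594 dips. Over all tested genes the day 4 libraries lay above all others in 8.14% and below all others in 6.66%. Peaks and dips were defined by tests on these same libraries, so the counts without overlap describe them and lend them no support. Among the peaks, 345 were not called between day 8 and day 0, 415 were still above day 0 at day 8, and 86 had ended below it. Among the dips, 375 were not called between the ends, 160 were still below day 0 and 59 had ended above it. At least 2-fold separated day 4 from both ends in 285 peaks and 172 dips. Between day 8 and day 0 themselves, 67.7% of genes were called. Of the log2 change between the ends, the median riser (5031 genes) had covered 79.6% by day 4, and the median faller (4932 genes) 67.2%.

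The regulators and markers of fat cells were early and level. Of 22 tested adipocyte identity genes (23 listed), 22 were called above the midpoint, with a median midpoint difference of 3.46, and 4 of them fell again by day 8. Pparg, which encodes PPARγ, had 22.1, 22.7 and 12.1 CPM (counts scaled to library size) in the day 0 libraries, 360, 209 and 354 at day 4, and 316, 294 and 272 at day 8. Its midpoint difference was 2.04 ± 0.22 (SE; adjusted p = 8.7e-05), and it had covered 102% of its log2 change by day 4. Cebpa, which encodes C/EBPα, had 34.4, 32.6 and 32.3 CPM at day 0, 818, 454 and 778 at day 4, and 551, 581 and 502 at day 8, a midpoint difference of 2.35 ± 0.17. In both genes day 4 replicate 2 was the lowest of its group, and for Cebpa it lay below all 3 day 8 libraries.

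Fabp4, a fatty acid carrier, was at 170, 222 and 170 CPM at day 0, 38591, 25125 and 39460 at day 4, and 44509, 43307 and 42062 at day 8. It had covered 95.8% of its rise by day 4. Adipoq, the hormone adiponectin, went further: from 9.96, 11.2 and 11.1 CPM at day 0 to 3103, 2730 and 3600 at day 4 and back to 2181, 1862 and 2239 at day 8. Its midpoint difference was 4.39 ± 0.14 (adjusted p = 1.29e-07), and its later fall of 0.59 on the log2 scale passed the test (adjusted p = 0.0187). Cidec, a protein that fuses lipid droplets, had the largest midpoint difference of the list, 4.78 ± 0.18. Plin1, the coat of lipid droplets, and Slc2a4, the insulin-regulated glucose transporter, were level after day 4, at 97.1% and 97.9% of their change.

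**Figure D2:**
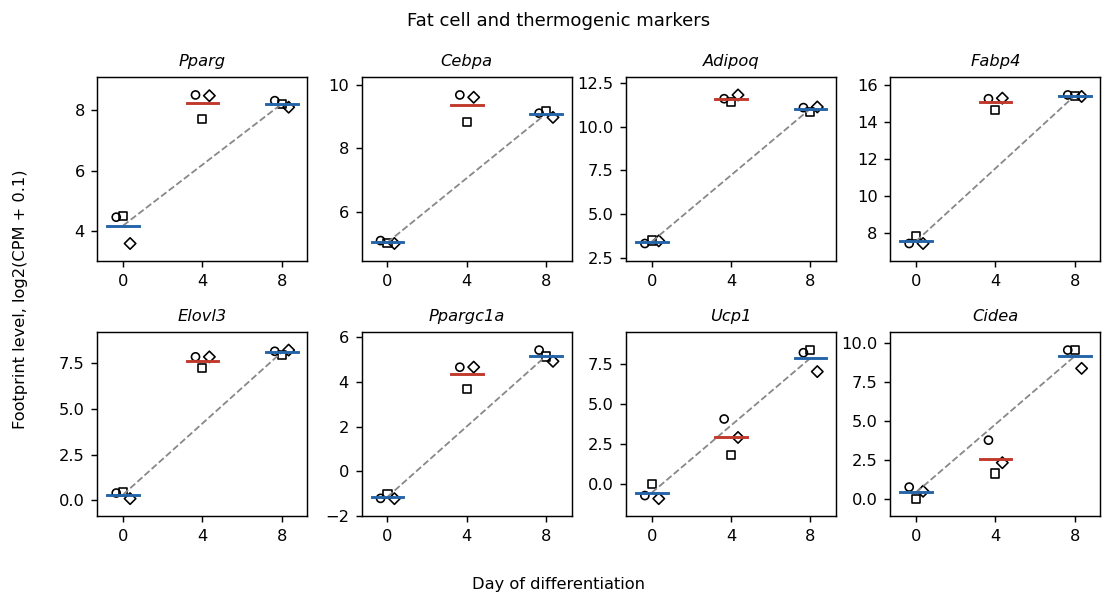
Footprint levels of 8 marker genes as log2(CPM + 0.1) against day, with open symbols for libraries (circle, square and diamond for replicates 1, 2 and 3), bars for group means and a dashed line from the day 0 to the day 8 mean. Pparg, Cebpa, Adipoq, Fabp4, Elovl3 and Ppargc1a lie above the line at day 4, Ucp1 near it and Cidea below it.

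The thermogenic list was split. Of 27 tested members (33 listed), 14 were above the midpoint and 4 below, with a median of 1.01. Elovl3, an elongase of very long fatty acids, and Kcnk3, a potassium channel of brown fat, had covered 94.5% and 95.1% of their change by day 4. Ppargc1a and Ppargc1b, coactivators of mitochondrial genes, had covered 88.4% and 95.5%. Ucp1, the heat producer itself, was at 0.518, 0.928 and 0.442 CPM at day 0, 16.7, 3.41 and 7.47 at day 4, and 293, 328 and 129 at day 8. Its midpoint difference of -0.45 ± 0.51 did not pass the test (adjusted p = 0.53), so its course on the log2 scale could not be told from a straight line. It rose in both steps, by 3.87 ± 0.66 and 4.77 ± 0.58 on the log2 scale.

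Cidea, a lipid droplet protein typical of brown and beige fat, was below the midpoint. It had 1.61, 0.928 and 1.32 CPM at day 0, 13.5, 3.03 and 4.93 at day 4, and 733, 730 and 326 at day 8. All 3 day 4 libraries lay below all 3 day 8 libraries and above all 3 day 0 libraries. The fitted fold from day 0 to day 4 was 5.53, and from day 4 to day 8 it was 83.3. The midpoint difference was -1.96 ± 0.49 (adjusted p = 0.0112), and 27.9% of the log2 change had been covered by day 4. The call was lost without day 4 replicate 3 (adjusted p = 0.053) and with no filter on low counts. Leaving out day 4 replicate 1, the highest of its group for both genes, moved Cidea to -2.80 and Ucp1 to -1.20. Without replicate 3 at day 4, the thermogenic list had 12 members above and 2 below.

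**Figure D3:**
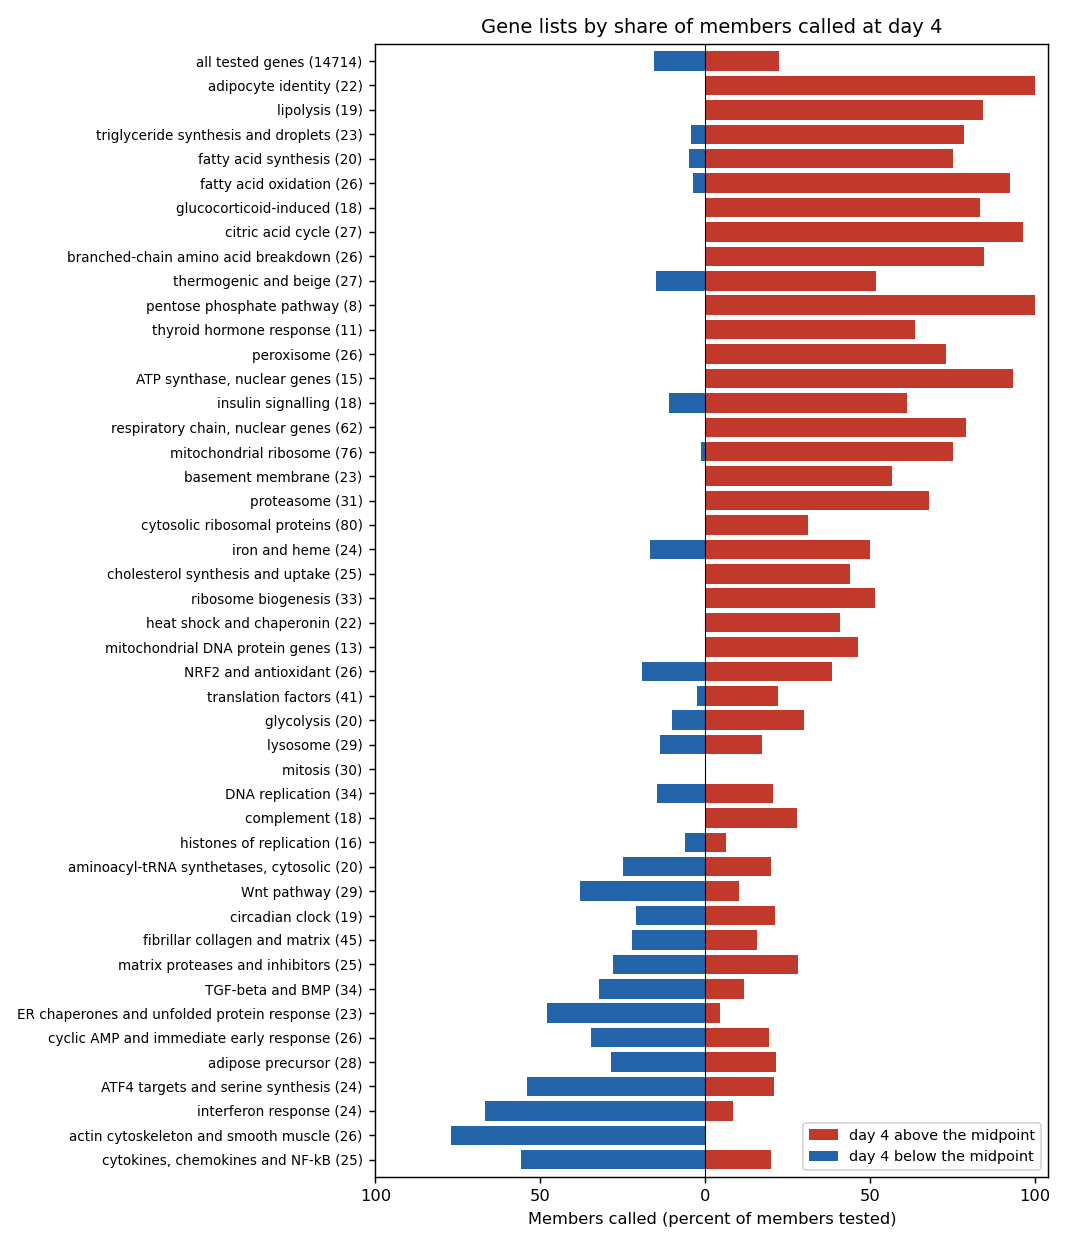
Bars give the percent of tested members of each gene list called above (red, to the right) or below (blue, to the left) the midpoint, with the number tested in parentheses and all 14714 tested genes (22.4% above, 15.5% below) in the top row. Lists are ordered by median midpoint difference, from adipocyte identity (3.46) down to cytokines, chemokines and NF-kB (-1.53).

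Fatty acid, triglyceride and nuclear-encoded mitochondrial lists were above the midpoint in most members. Each of the lipid and mitochondrial lists had a median above 0 under the 4 scalings used. Fatty acid synthesis had 15 of 20 above and 1 below, lipolysis 16 of 19 and 0, and triglyceride synthesis and droplets 18 of 23 and 1. Of the fatty acid synthesis genes, 6 were peaks. Fasn, fatty acid synthase, was at 475, 477 and 570 CPM at day 0, 15232, 9896 and 16165 at day 4, and 6295, 6616 and 6132 at day 8. Every day 4 library of Fasn was above every other library, and the midpoint difference was 2.94 ± 0.18 (adjusted p = 2.91e-06). Acaca, which makes the substrate of Fasn, rose by 4.31 and then fell by 1.05 on the log2 scale. Thrsp, a thyroid hormone responsive gene of lipid synthesis, had 5.3, 6.96 and 6.46 CPM at day 0, 2998, 889 and 3186 at day 4, and 669, 866 and 523 at day 8. Day 4 replicate 2 of Thrsp lay close to the day 8 libraries.

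The citric acid cycle list had 26 of 27 members above the midpoint, fatty acid oxidation 24 of 26 with 1 below, and branched-chain amino acid breakdown 22 of 26. Of the nuclear genes of the respiratory chain, 49 of 62 were above (median 0.78), and of those of the ATP synthase 14 of 15. The mitochondrial ribosome had 57 of 76 above and 1 below. Against a 1.5-fold difference, which asks for a larger change, 18 respiratory chain, 6 ATP synthase, 12 mitochondrial ribosome and 14 branched-chain amino acid genes stayed above. By that test 1275 of all 14714 tested genes were above and 522 below, the background for every count at 1.5-fold given here. None of the respiratory chain, ATP synthase and citric acid cycle genes was a peak, and 28 of the 62 respiratory chain genes rose again between day 4 and day 8. Uqcrfs1, the iron-sulfur subunit of complex III, rose from 94.9, 96.8 and 93.8 CPM to 1402, 901 and 1534 and was level at 1382, 1319 and 1172 at day 8. Pcx, pyruvate carboxylase, which refills the citric acid cycle, had the largest value of that list, 3.44 ± 0.22. Bcat2, the first step of branched-chain amino acid breakdown in mitochondria, rose by 4.05 and then fell by 1.23 on the log2 scale.

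Genes encoded by mitochondrial DNA moved less than the nuclear ones: 6 of 13 were above the midpoint, with a median of 0.24, and without day 4 replicate 3 the count was 2. The difference between the nuclear and the mitochondrial list was not tested. mt-Nd2, a subunit of complex I, was at 53.8, 38.8 and 45.5 CPM at day 0, 122, 136 and 165 at day 4, and 188, 172 and 165 at day 8. mt-Cytb, a subunit of complex III, was a peak, at 291, 219 and 264, then 345, 417 and 464, then 273, 272 and 285. Its midpoint difference was 0.61 ± 0.12 (adjusted p = 0.00357). Nuclear copies of mitochondrial genes exist, and how reads with several matches were counted is not given, so these counts are uncertain.

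The first peaks to describe are glucocorticoid-induced genes. Of 18 tested, 15 were above the midpoint and 0 below, with a median of 1.34, and 7 were peaks. Dexamethasone was in the medium for the first 2 days only, as were 3-isobutyl-1-methylxanthine and indomethacin. The agents and time cannot be told apart here, and the part of dexamethasone in these peaks was not tested. Fkbp5, a chaperone that restrains the glucocorticoid receptor, was at 26.5, 26.2 and 32.2 CPM at day 0, 371, 324 and 331 at day 4, and 42.5, 70.5 and 50.8 at day 8. Fkbp5 had a midpoint difference of 3.12 ± 0.15 (adjusted p = 7.13e-07). Tsc22d3, the glucocorticoid-induced leucine zipper, went from 23.7, 21 and 27 to 129, 148 and 134 and back to 35.3, 46.2 and 32.3 CPM. In both genes no day 4 library overlapped the others, and day 8 stayed above day 0 by 0.95 and 0.67 on the log2 scale. Klf9 and Per1, also glucocorticoid-induced and both transcription regulators, rose to day 4 and were not called afterwards, with second steps of 0.03 and -0.09.

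Sult1a1, a sulfotransferase of phenols, was the list's largest peak at 0.548, 0.217 and 0.524 CPM, then 106, 72.3 and 97.1, then 5.72, 6.44 and 7.45. The fitted midpoint difference was 5.76 ± 0.19 (adjusted p = 1.84e-07). Zbtb16, a transcription factor, rose from 0.274, 0.371 and 0.442 to 105, 84.3 and 96.5 CPM and fell to 37, 54.5 and 26.5. Hsd11b2, the enzyme that inactivates glucocorticoids, peaked too, at 0.701, 0.402 and 0.414, then 16.3, 10.9 and 13.4, then 0.782, 1.28 and 2.18 CPM. Its midpoint difference was 3.99 ± 0.29 (adjusted p = 7.99e-06).

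Of the genes with more than 3 counts in every group, Map7d2, a microtubule-associated protein known from neurons, led the peaks described here. It had 0.183, 0.279 and 0.276 CPM at day 0, 102, 89.4 and 118 at day 4, and 1.98, 2.99 and 2.55 at day 8. The value was 7.02 ± 0.16 (adjusted p = 1.65e-08), with a first step of 8.69 ± 0.24 and a second of -5.36 ± 0.18. Cyp2e1, a cytochrome P450 of the liver, went from 0.0609, 0.186 and 0 to 52.3, 18.4 and 27 and then to 0.921, 2.59 and 2.66 CPM. For both genes every day 4 library was well above all others. Leaving out day 0 replicate 2 moved Cyp2e1 from 6.30 to 6.97.

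Several secreted proteins peaked from near absence. Cxcl13, a B cell chemokine, had 2 counts in all at day 0, then 4.94, 2.31 and 10.7 CPM at day 4, and 0.0837, 0.0802 and 0.112 at day 8. The ratio of day 4 to day 0 was 303, with a 95% exact Poisson interval of 83.8 to 2499, which covers counting error only. Retnla, a resistin-like secreted protein, had 3 counts at day 0, then 8.37, 2.7 and 14 CPM at day 4, and 0.391, 0.294 and 1.09 at day 8, a ratio of 283 (96.7 to 1370). Alkal2, a ligand of the receptor ALK, had 0 counts at day 0 and 7.59, 3.8 and 11.4 CPM at day 4, at least 85.2-fold higher than a floor of 3 counts per library, and 0.865, 0.962 and 0.728 at day 8. Day 4 replicate 2 was the lowest of its group in all 3 genes. Without day 4 replicate 3 the midpoint difference was 6.27 for Cxcl13 (6.98 with it) and 5.31 for Retnla (5.90 with it). Leaving out the day 0 library that held their counts (replicate 2 for Cxcl13, replicate 3 for Retnla) gave 8.35 and 7.51.

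Clca3a1, a secreted regulator of chloride conductance, was the only one of the 12 largest peaks that ended below its start. It had 9.62, 7.64 and 13 CPM at day 0, 37.5, 200 and 63.6 at day 4, and 2.9, 2.62 and 4.82 at day 8. Here day 4 replicate 2 was the highest library. Without it the midpoint difference went from 4.09 ± 0.45 to 3.10. Sox7, a transcription factor known from endothelium, was at 0, 0.124 and 0.248, then 1.95, 3.88 and 3.1, then 0.112, 0.214 and 0.14 CPM. Ppl, the cytoskeletal linker periplakin, and Mettl7b, a thiol methyltransferase of lipid droplets, complete the 12, with midpoint differences of 4.80 ± 0.33 and 5.32 ± 0.30.

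**Figure D4:**
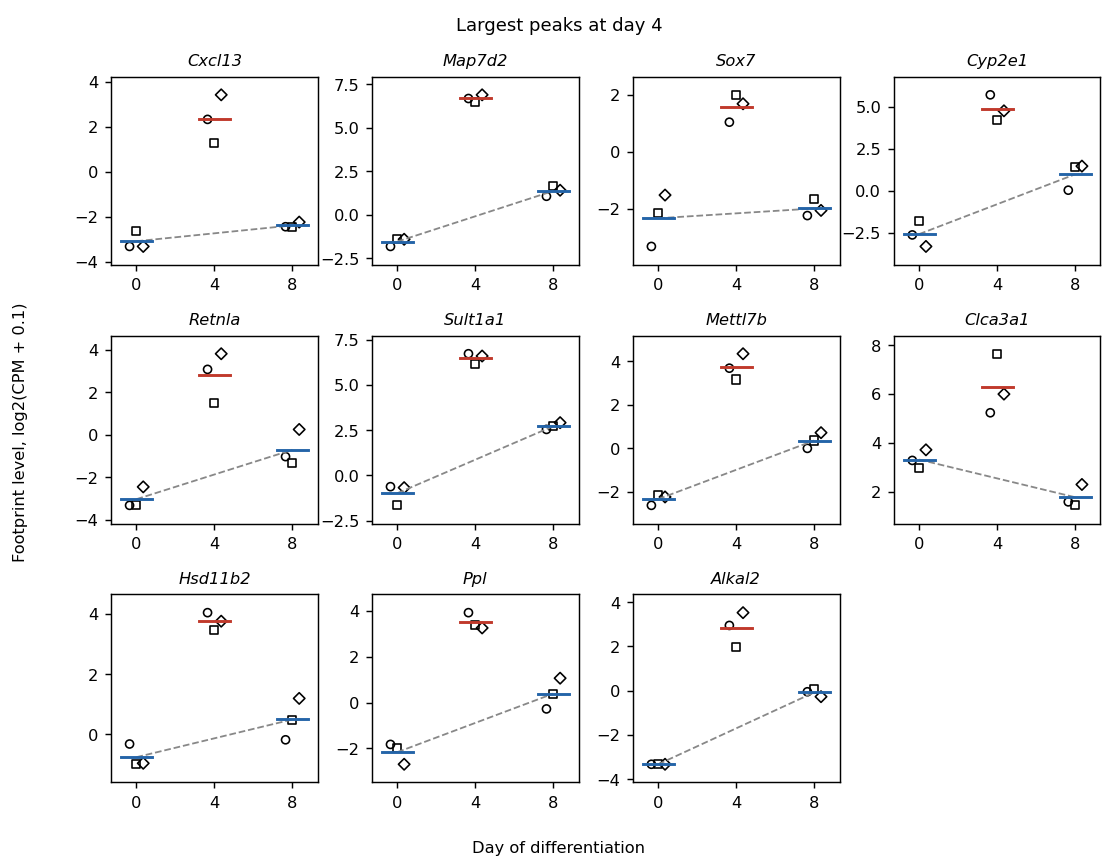
Footprint levels of 11 of the 12 peaks with the largest smaller step, as log2(CPM + 0.1) against day, with open symbols for libraries, bars for group means and a dashed line from the day 0 to the day 8 mean. In each gene the 3 day 4 libraries lie above all day 0 and day 8 libraries; each panel has its own y axis.

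Of 25 tested genes of cholesterol synthesis and uptake, 11 were above the midpoint and 0 below, 4 of them peaks, with a median of 0.30. With library totals these counts were 7 and 1. Without day 4 replicate 2, 11 were above and 5 below, and against a 1.5-fold difference 6 were above. Dhcr7, the last step of cholesterol synthesis, was at 67, 53.6 and 61.8 CPM, then 308, 407 and 475, then 97.5, 98 and 119, a midpoint difference of 2.31 ± 0.14 (adjusted p = 2.72e-06). Cyp51, lanosterol demethylase, was at 306, 253 and 292, then 1359, 692 and 1487, then 180, 207 and 305. Nsdhl and Acat2, 2 further enzymes of the pathway, had midpoint differences of 1.21 ± 0.12 and 1.05 ± 0.11. Tfrc, the receptor that takes up transferrin-bound iron, also peaked, at 67.6, 70.9 and 69.9, then 347, 357 and 488, then 117, 134 and 140 CPM. Trf, transferrin itself, peaked with a midpoint difference of 2.34 ± 0.18.

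Ribosome and protein quality genes moved by smaller amounts. Ribosome biogenesis had 17 of 33 members above and 0 below (median 0.30), the proteasome 21 of 31 and 0 (0.40), and heat shock proteins and chaperonins 9 of 22 and 0 (0.28). Without day 4 replicate 3 ribosome biogenesis had 11 above, and with library totals 10 above and 1 below. Against a 1.5-fold difference 0 ribosome biogenesis, 1 proteasome and 2 heat shock genes were above, where 1275 of all 14714 tested genes were. None of these 3 counts stands out from that background. Rrp12, a factor of ribosome export, had 32.5, 29.5 and 35.7 CPM, then 56.6, 66.1 and 68.7, then 46.7, 42.2 and 45.6. Eif4g1, the scaffold of translation initiation, had 422, 447 and 483, then 732, 729 and 754, then 386, 396 and 404, and its midpoint difference was 0.81 ± 0.09 (adjusted p = 0.00012). Psmd1, a subunit of the regulatory particle of the proteasome, had 177, 180 and 183, then 313, 323 and 353, then 235, 218 and 240. No day 4 library of Rrp12, Eif4g1 or Psmd1 overlapped the others. Of 41 translation factors 9 were above and 1 below, which is near the background share; without day 4 replicate 1 the counts were 15 and 2.

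Of 80 cytosolic ribosomal protein genes 25 were above and 0 below (median 0.38), a count that was 39 without day 4 replicate 1, 10 without day 4 replicate 3, 15 with library totals (2 below) and 2 against a 1.5-fold difference. These genes have many processed pseudogenes, and the handling of reads with several matches is not given: Rps6, a core ribosomal protein, had only 1.19, 1.11 and 1.74 CPM at day 0 and 3.14, 3.05 and 2.99 at day 4. Their counts are therefore uncertain.

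Basement membrane and interstitial matrix were counted as separate lists, and the difference between them was not tested. Of 23 tested basement membrane genes (25 listed) 13 were above the midpoint and 0 below (median 0.44), with 3 below when day 4 replicate 2 was left out, and 7 above against a 1.5-fold difference. Col4a1 and Col4a2, the main type IV collagen chains, are divergent neighbours that share a promoter. Col4a1 was at 2934, 2730 and 3425 CPM, then 7387, 8659 and 7375, then 2548, 2675 and 3203. Col4a2 was at 2104, 1984 and 2604, then 4358, 5487 and 4280, then 1276, 1359 and 1767. Their midpoint differences were 1.42 ± 0.14 and 1.38 ± 0.16. Both peaked with no overlap, and Col4a2 ended below its start (adjusted p = 0.0183).

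Of 45 fibrillar collagen and matrix genes, 7 were above and 10 below, with a median of -0.12 (17 below without day 4 replicate 2 and 6 without day 4 replicate 3). Col6a3, a microfibril collagen, peaked at 2922, 2633 and 3493, then 6683, 7297 and 6338, then 2767, 2490 and 4005 CPM. Thbs1, the matrix protein thrombospondin 1, was a dip at a much lower level than its start: 22513, 24000 and 25730 CPM, then 1344, 2810 and 749, then 4440, 2984 and 4889. Its midpoint difference of -2.60 ± 0.41 went to -3.24 without day 4 replicate 2. Mmp19, a matrix protease, peaked with a midpoint difference of 1.10 ± 0.08.

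The actin list was the most uniform below the midpoint. Of 26 tested genes of the actin cytoskeleton and smooth muscle, 20 were below and 0 above, with a median of -1.02, and 10 were below against a 1.5-fold difference. Most were early losses: 24 fell by day 4, 2 rose again and 4 fell further. Myl9, a myosin light chain of contractile cells, went from 706, 651 and 482 CPM to 33.5, 33.5 and 11.1 and was at 44.5, 30.5 and 58.9 at day 8. Myh10, a non-muscle myosin, went from 390, 415 and 428 to 92.3, 83.8 and 65.7 and then 94, 85.9 and 84.4. For both, day 4 and day 8 overlapped. Tpm4, a tropomyosin, was a dip, with 143% of its log2 change covered by day 4. Of 12 skeletal muscle markers, 3 were at 0 in every library and 2 were tested, both below the midpoint, and 1 of these, Acta1, was at -2.41 ± 0.31. Their summed levels were 48.2 to 62.2 CPM at day 0, 6.18 to 9.88 at day 4 and 20.5 to 28.7 at day 8. Of 8 tested pericyte and smooth muscle markers (9 listed) 1 was above and 2 below, with sums of 95.3 to 135, 150 to 178 and 151 to 174 CPM. The part of such cells in the actin counts was not tested.

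**Figure D5:**
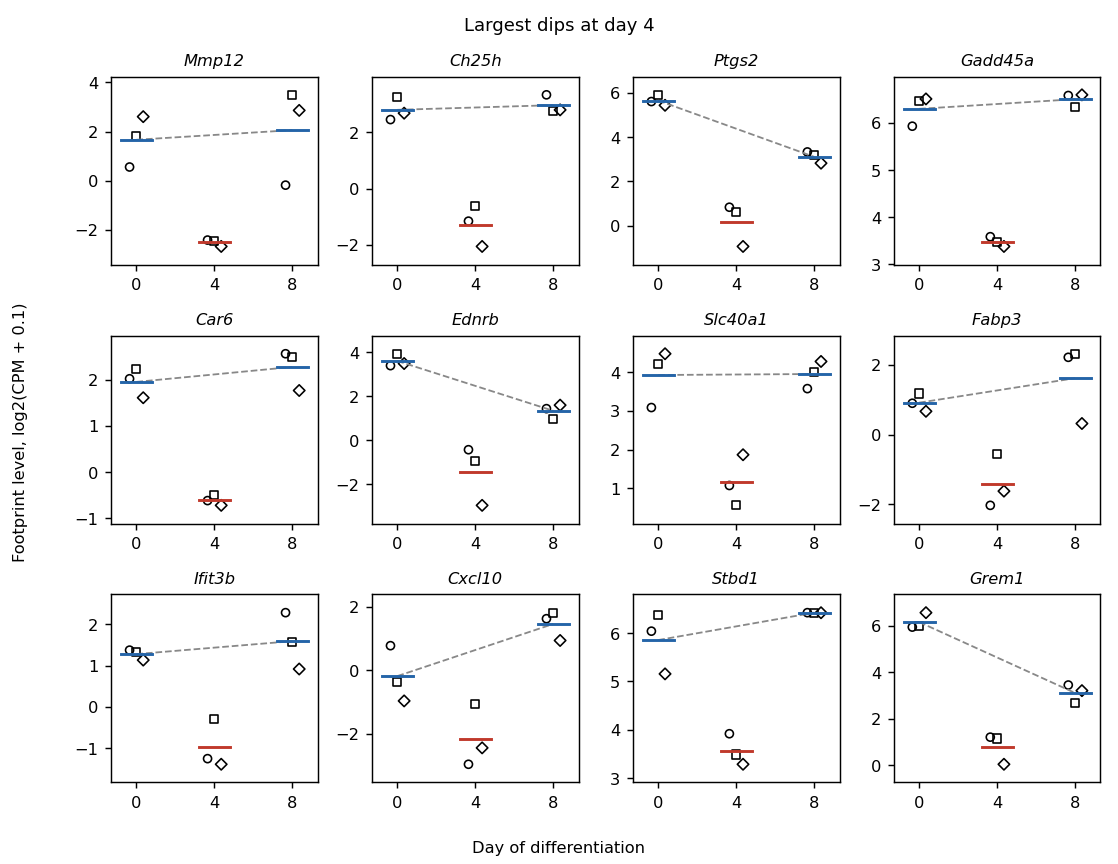
Footprint levels of the 12 dips with the largest smaller step, as log2(CPM + 0.1) against day, with open symbols for libraries, bars for group means and a dashed line from the day 0 to the day 8 mean. In each gene the 3 day 4 libraries lie below all day 0 and day 8 libraries; each panel has its own y axis.

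Ptgs2, Ch25h and Gadd45a were among the 12 largest dips. Ptgs2, the inducible cyclooxygenase, was at 48.8, 60.3 and 43.4 CPM at day 0, 1.69, 1.46 and 0.423 at day 4, and 9.99, 8.95 and 7 at day 8. Day 4 lay at -4.14 ± 0.35 from the midpoint (adjusted p = 2.21e-05). Ch25h, which makes 25-hydroxycholesterol, was at 5.36, 9.47 and 6.29, then 0.349, 0.55 and 0.141, then 9.94, 6.68 and 6.83, a value of -4.40 ± 0.39. Gadd45a, induced by DNA damage and other stress, was at 60.9, 87.7 and 91, then 11.9, 11 and 10.3, then 95.7, 80.5 and 96.6. Ch25h and Gadd45a returned to levels not called different from day 0, with end-to-end changes of 0.15 and 0.19 on the log2 scale.

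The same 12 held Slc40a1, Stbd1, Grem1 and Fabp3. Slc40a1, ferroportin, the cellular iron exporter, was at 8.41, 18.5 and 22.2 CPM, then 2.01, 1.38 and 3.55, then 11.8, 16 and 19.3, where the importer Tfrc had peaked. Stbd1, a glycogen-binding protein, was at 65.6, 82.6 and 35.5, then 15, 11.1 and 9.67, then 85.6, 85.6 and 85.5. Grem1, an inhibitor of bone morphogenetic proteins, fell from 61.1, 62.4 and 93.9 to 2.21, 2.12 and 0.931 and recovered in part to 10.8, 6.25 and 9.13. Of the 34 TGF-beta and BMP genes 11 were below and 4 above the midpoint (18 below without day 4 replicate 2). Fabp3, a fatty acid carrier of muscle and brown fat, was at 1.77, 2.17 and 1.49, then 0.145, 0.578 and 0.226, then 4.55, 4.89 and 1.15, and its midpoint difference of -2.97 ± 0.58 went to -3.74 without day 4 replicate 2.

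Mmp12, macrophage elastase, had the lowest fitted value of the 12 dips, -5.93 ± 1.09 (adjusted p = 0.00231), with 1.37, 3.47 and 5.99 CPM, then 0.0872, 0.0826 and 0.0564, then 0.782, 11.2 and 7.17. The call was lost with limma-voom, and also when day 4 replicate 2 and day 8 replicate 3 were left out together. Of 11 tested macrophage markers (14 listed, none at 0 in every library), 2 were above and 0 below, namely Mrc1 at 1.95 ± 0.59 and C1qa at 1.31 ± 0.36. That is no more than the background shares of 22.4% above and 15.5% below. The call of Mrc1 was lost without day 0 replicate 1 or 2, day 4 replicate 2 or 3 or day 8 replicate 2, and that of C1qa without day 4 replicate 3. Leaving out day 8 replicate 3 moved Mrc1 to 2.54. Summed levels of the list were 59.6 to 129 CPM at day 0, 59.6 to 91.1 at day 4 and 8.40 to 47.5 at day 8.

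Of 24 tested interferon response genes (25 listed), 16 were below the midpoint and 2 above, with a median of -0.92. By the steps 13 fell to day 4, 13 rose afterwards and 7 were dips. Against a 1.5-fold difference 8 were below. Isg15, a ubiquitin-like modifier, was at 78.7, 56.1 and 50.2 CPM at day 0, 11.9, 22.1 and 10.3 at day 4, and 49, 41.2 and 40.5 at day 8. Usp18, which removes Isg15 from proteins, was at 13.7, 9.19 and 11.7, then 2.7, 5.48 and 3.72, then 14.9, 13.1 and 11.8. Their midpoint differences were -1.81 ± 0.26 (adjusted p = 0.000534) and -1.64 ± 0.23 (adjusted p = 0.000463), and no day 4 library overlapped the others, although replicate 2 was the highest of its group. Bst2, tetherin, had a smaller dip, -0.76 ± 0.10.

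Ifit3 and Ifit3b are near-identical copies whose reads may be split, so each count is uncertain. Ifit3 was at 10.8, 7.89 and 9.91, then 1.45, 4.02 and 1.04, then 15.2, 10.6 and 10.9 CPM, and Ifit3b dipped by -2.61 ± 0.41. Ifit1, of the same family of RNA-binding proteins, was at 31.4, 15.3 and 21, then 5.70, 11.5 and 4.48, then 26.4, 24.4 and 23. Rsad2, the antiviral protein viperin, was not called in the first step and rose in the second by 3.78 ± 0.54. Without day 4 replicate 2, the midpoint difference of Ifit3 went from -2.31 to -3.11 and that of Rsad2 from -2.31 to -3.42. Over the list, leaving out that library with day 8 replicate 3 gave 20 below and 2 above.

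Ifit1, Ifit3 and Rsad2 were named after their values and promoters were seen. The promoters of 5 interferon genes are shown because each was called below the midpoint and holds the interferon-response-like motif in the 300 bases around its start (GAAA, any 2 bases, GAAA, on either strand). The windows are 30 bases of RefSeq promoter sequence on GRCm38.p6, read along the gene's strand, with the match in capitals and its first base counted from the start. A match on the opposite strand reads TTTC, any 2 bases, TTTC.
Isg15 (chr4:156200871-156200900, minus strand, match from base -72): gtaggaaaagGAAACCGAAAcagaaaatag
Ifit1 (chr19:34640794-34640823, plus strand, match from base -85): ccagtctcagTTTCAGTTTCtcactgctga
Ifit3 (chr19:34583397-34583426, plus strand, match from base -122): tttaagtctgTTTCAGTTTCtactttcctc
Rsad2 (chr12:26456553-26456582, minus strand, match from base -120): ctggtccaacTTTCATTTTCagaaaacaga
Bst2 (chr8:71537577-71537606, minus strand, match from base -124): ccaggaaaatGAAACTGAAAggctgcagtt
The motif occurred in 10 of the 20 interferon genes matched by symbol and in 3.44% of the 32851 promoters in the table. Of those 10 genes 3 were not called, and they are named for this after their values were seen: Gbp2 and Gbp3, guanylate-binding proteins, at 0.03 and -0.29 (adjusted p = 0.82 and 0.16), and Oas1a, an oligoadenylate synthetase, at -1.29 (adjusted p = 0.089). Gbp3 and Oas1a were called without day 4 replicate 2, at -0.46 and -2.44. The sign of Gbp2 turned with library totals (-0.12). The other called genes with the motif, at -0.80 and -0.44 (edgeR, adjusted p = 0.019 and 0.048), are not shown. A match is a description of the letters and shows no binding.

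Of 25 tested genes of the cytokine, chemokine and NF-kB list (30 listed), 14 were below and 5 above, with a median of -1.53, and 5 were dips. Against a 1.5-fold difference 9 were below. Il6, the cytokine interleukin 6, was at 3.9, 5.17 and 3.78 CPM, then 0.116, 0.275 and 0.0564, then 0.726, 0.16 and 0.952. Cxcl10, an interferon-induced chemokine, was at 1.61, 0.681 and 0.414, then 0.0291, 0.385 and 0.0846, then 2.99, 3.42 and 1.82. Without day 4 replicate 2 their midpoint differences went from -3.40 to -4.18 and from -3.19 to -4.69. Tnfrsf11b, the decoy receptor osteoprotegerin, had a value of -3.51 ± 0.38.

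Of the 5 members above, Nfkbia, which holds NF-kB in the cytoplasm, peaked at 23.2, 23.9 and 22, then 74.3, 74.3 and 77.3, then 29.9, 33 and 33.7 CPM, with little spread in any group. The midpoint difference was 1.47 ± 0.07 (adjusted p = 8.22e-07). Tnfaip3, a ubiquitin-editing inhibitor of the same pathway, peaked at 4.39, 6.13 and 3.67, then 30.7, 15.5 and 30.6, then 9.8, 13.6 and 8.2. Both genes are known targets of NF-kB as well as inhibitors of it, and Nfkbia is also known to be induced by glucocorticoids.

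The list of cyclic AMP and immediate early response genes had 9 of 26 members below and 5 above. Junb and Fosl2, subunits of the AP-1 transcription factor, were dips, at -1.18 ± 0.14 and -1.25 ± 0.17. Nr4a1, a nuclear receptor induced by cyclic AMP, was an early loss, at 31, 66.6 and 41.6 CPM, then 5.5, 7.32 and 4.2, then 7.03, 5.59 and 7.47. Pde3b, the insulin-activated phosphodiesterase of fat cells, rose early, with 92.1% of its change covered by day 4. Without day 4 replicate 3 the list had 6 below and 3 above.

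Of 24 targets of the transcription factor ATF4 and serine synthesis genes, 13 were below the midpoint and 5 above (median -0.42), with 7 dips. Against a 1.5-fold difference 7 were below and 1 above. The 5 above were 2 without day 4 replicate 3. Pycr1 and Aldh18a1, enzymes of proline synthesis, were at -1.07 ± 0.14 and -0.73 ± 0.10. A further 3 members were picked after their values were seen: Ddit3, the stress factor CHOP, Trib3, a pseudokinase, and Atf4 itself. Ddit3 was at 19.3, 13 and 30.3 CPM, then 5.61, 4.6 and 4.48, then 41.8, 22.9 and 13. Trib3 was at 159, 180 and 146, then 67.4, 18.5 and 51.8, then 301, 267 and 209. Atf4 was at 241, 203 and 240, then 150.4, 90.9 and 120, then 312, 248 and 231. In all 3 genes the day 4 libraries lay below every other library, and the ends were not called different. Vldlr, a lipoprotein receptor on the same list, was above the midpoint at 1.28 ± 0.09.

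Of 23 endoplasmic reticulum chaperones and unfolded protein response genes, 11 were below and 1 above (median -0.25), with 4 dips. In the first step 7 fell and 3 rose, and in the second 12 rose and 0 fell. Against a 1.5-fold difference 3 were below. Hspa5 and Creld2 are named for their promoters, after their values were seen. Hspa5, the chaperone BiP, was at 2150, 2243 and 2169 CPM, then 1854, 2092 and 1907, then 5215, 5367 and 4476. Its first step of -0.16 ± 0.15 did not pass the test, and its second of 1.36 ± 0.15 did. Sdf2l1 and Creld2, 2 further proteins of that compartment, had the same shape, with second steps of 1.88 and 1.19. Herpud1, a factor of protein degradation there, and Ern1, the stress sensor IRE1, were dips, at -1.29 ± 0.15 and -1.05 ± 0.11. Dnajb9, a cochaperone of BiP, was the member above the midpoint, at 0.83 ± 0.11.

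The promoters of Hspa5 and Creld2 hold the endoplasmic reticulum stress element (CCAAT, any 9 bases, CCACG, either strand), shown in capitals from the same RefSeq table on GRCm38.p6.
Hspa5 (chr2:34772020-34772049, plus strand, match from base -65): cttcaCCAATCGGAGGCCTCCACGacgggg
Creld2 (chr15:88819515-88819544, plus strand, match from base -126): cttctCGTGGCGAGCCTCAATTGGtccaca
It occurred in 8 of 20 matched genes of the list and in 0.119% of the 32851 promoters. Of those 8 genes 5 were not called, and they are named for this after their values were seen: Calr and Canx, lectin chaperones, at -0.11 and 0.01, Pdia6, a disulfide isomerase, at -0.25, Dnajc3, a cochaperone, at -0.23, and Syvn1, a ubiquitin ligase of that compartment, at 0.07 (adjusted p from 0.061 to 0.94). Pdia6 and Dnajc3 were called without day 4 replicate 2, at -0.39 and -0.25. With library totals Canx and Syvn1 were at -0.13 and -0.08. The other called gene with the element, at -0.40 (edgeR, adjusted p = 0.025), is not shown. A motif was also looked for in each of the ATF4 and cholesterol lists. Matches were in 7 of 22 and 1 of 17 matched genes, against 3.97% and 1.24% of all promoters, and are not shown.

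Slc2a1 and Npc1 were below the midpoint and rose after day 4. Slc2a1, the basal glucose transporter, was at 209, 259 and 192 CPM, then 231, 107 and 196, then 807, 630 and 548, a midpoint difference of -1.10 ± 0.24 (adjusted p = 0.0059), while the insulin-regulated Slc2a4 had been early. Glycolysis as a list had 6 of 20 above and 2 below, near the background. Its count above ran from 2 (without day 0 replicate 3 or day 4 replicate 1 or 3) to 13 (without day 4 replicate 2), and with library totals 3 were above and 3 below. Npc1, which exports cholesterol from lysosomes, was at 140, 151 and 154, then 109, 121 and 101, then 261, 271 and 267, a dip of -0.84 ± 0.09. The lysosome list had 5 of 29 above and 4 below, also near the background (10 below without day 4 replicate 2, and 2 above and 7 below with library totals).

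Of 30 mitosis genes, 0 were called above or below by edgeR, 0 had an unadjusted p under 0.05, and DESeq2 called 0 and limma-voom 1. The median midpoint difference was 0.06, and -0.08 with library totals. By the steps 23 fell to day 4 and 23 fell again to day 8, and the median member had covered 46.8% of its change. Without day 8 replicate 3, 5 mitosis genes were above. DNA replication had 7 of 34 above and 5 below (median 0.06, and -0.08 with library totals), near the background shares of 22.4% and 15.5%. Without day 4 replicate 3 it had 4 above. E2f2, a cell cycle transcription factor, and Cdc45, a helicase component, peaked, at 2.42 ± 0.27 and 0.90 ± 0.14, and Rfc3, a clamp loader subunit, was a dip at -0.73 ± 0.10.

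Preadipocyte markers were mixed. Of 28 tested, 8 were below and 6 above (median -0.38), with 14 below without day 4 replicate 2, and 5 below without day 4 replicate 1 or replicate 3. Midpoint differences in the list ran from -2.35 to 2.73, and 18 members fell in the first step while 5 rose. The 3 markers described next were set by name, and none of them is among the 8 below, so they do not represent the list. Pdgfra, the platelet-derived growth factor receptor of adipose progenitors, was at 585, 703 and 725 CPM, then 314, 692 and 386, then 160, 202 and 285. Its midpoint difference of 0.29 ± 0.25 did not pass the test (adjusted p = 0.41), and it was -0.12 without day 4 replicate 2. Ly6a, the surface antigen Sca-1, was above the midpoint at 227, 178 and 150, then 221, 534 and 252, then 108, 98.4 and 125, where day 0 and day 4 overlapped and close paralogs make the count uncertain. Dlk1, a preadipocyte inhibitor of differentiation, was at 9.2, 4.86 and 9.52, then 11.3, 17.3 and 11.6, then 5.39, 7.94 and 5.82, a peak of 0.92 ± 0.23 (adjusted p = 0.0124). In all 3 genes day 4 replicate 2 was the highest of its group. Markers of other cells gave few calls: 0 of 7 tested for endothelium, 0 of 6 for lymphocytes, 1 of 5 (above) for Schwann cells, 1 of 2 (below) for epithelium, and 0 of 2 for mesothelium and 0 of 1 for mast cells. No erythrocyte marker had enough counts to be tested.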

How the data were processed

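The deposited values are raw counts per Ensembl gene, 1 column per library. Per the submitters' processing notes, the authors trimmed reads with cutadapt, aligned them to GRCm39 with HISAT2 and counted genes with featureCounts; the sources used here do not give versions, the strand setting or the handling of reads with several matches. Per the labels' protocols, cycloheximide-treated lysates were nuclease-digested (RNase I) and depleted of ribosomal RNA, and fragments of footprint size were cut from a gel.

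Genes were filtered with filterByExpr (minimum count 10), scaled with TMM and fitted with the robust quasi-likelihood test of edgeR 4.0.16 (limma 3.58.1, R 4.3.3), on all 9 libraries with no term but group. Contrasts were day 4 minus the average of day 0 and day 8, the 2 steps, and day 8 minus day 0, each adjusted by Benjamini-Hochberg over the 14714 genes. CPM use TMM-scaled library sizes. SE comes from the F statistic. Fits were tested on simulated data with genes changed at day 4 only. Of these, 66 of 100 were called at 2-fold and 90 of 100 at 4-fold, with 11 false calls. A gene that was not called may therefore still have differed from the midpoint. The members and the 55 gene lists were chosen with earlier results of these data known. Named genes are the 8 largest values per sign, the 12 largest peaks and dips whose highest group averaged 100 or more counts and whose day 4 libraries overlapped no others, up to 4 members per list by adjusted p, and 10 markers; exceptions are marked, and 2 genes under this rule are not reported here. Of the named genes, 22 overlap another tested gene in RefSeq (GRCm38.p6), among them Ddit3, Ifit1, Ifit3b, Elovl3, Pcx and Sult1a1, and without the strand setting reads of such pairs cannot be told apart. Replicate libraries differed beyond sampling noise in every pair. The pairs with day 4 replicate 2 differed most, with chi-square per degree of freedom of 257 and 230, against 24.0 between day 4 replicates 1 and 3. Alternatives were other scalings, filters, DESeq2 1.42.0, limma-voom, a 1.5-fold threshold, a replicate block and left-out libraries. Differences between lists were not tested.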

Additional observations from a re-analysis of the deposited data

How the results depend on the processing

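Of 2412 values of named genes under alternatives, 2355 kept their direction and their side of the threshold, 27 lost the call, 18 gained one (Psmb5, Gbp3, Oas1a, Calr, Pdia6 and Dnajc3, 11 of them without day 4 replicate 2 alone or with day 8 replicate 3) and 12 changed sign, all of them uncalled (Pdgfra, whose uncalled value of 0.29 ran from -0.12 to 0.50 with 1 library left out, the lowest without day 4 replicate 2; Canx at -0.13, -0.059 and -0.0046 and Syvn1 at -0.081 and -0.0055 with library totals, upper quartile factors and, for Canx, limma-voom; Gbp2 at -0.12 and -0.042 with the first 2 of these; Gbp2 and Canx at -0.015 and -0.15 without day 4 replicate 2 and day 8 replicate 3; and with 1 library left out, Calr from -0.23 to 0.019 and Canx from -0.14 to 0.13). With library totals 3478 genes were called below the midpoint, and there were 532 peaks and 1067 dips. A test against a 1.5-fold difference called 1797 genes by the midpoint difference, 1275 above and 522 below, with 298 peaks and dips (206 and 92), and 323 of the 688 called list members. It called 4900 genes for day 4 against day 0, 1066 for day 8 against day 4 and 6473 for day 8 against day 0. It asks for a larger change, and lost the calls of mt-Nd2, mt-Cytb, Rrp12, Psmd1, Aldh18a1, Dnajb9, Hspa5, Creld2, Bst2, Slc2a1, Rfc3, Dlk1, Mrc1, C1qa, Psmb10 and Tap1. Leaving out 1 library at a time gave 3643 to 6859 genes called (2402 to 3774 above, 1241 to 3085 below), 881 to 1914 peaks and dips together, 542 to 1119 peaks and 339 to 795 dips; the lowest were without day 4 replicate 3 and the highest without day 4 replicate 2. Day 8 against day 4 then had 2691 to 4883 genes. DESeq2 called 3482 above and 2648 below, limma-voom 3199 and 2389, and with no filter on low counts 3187 and 1857 were called. Of the 3291 genes above, 3189 were also above the arithmetic mean of the day 0 and day 8 CPM. The replicate numbers did not pair the libraries (correlations of deviations from -0.20 to 0.19, 2 of 9 over 0.1); with the replicate block 3015 genes were above and 2071 below. Low counts at day 0, as for Cxcl13 and Retnla, limit the precision of the largest values.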

Other observations

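The genes of this section were picked after their values were seen, and no list was tested. Several secreted proteins best known from the liver were highest at day 4. Hp, haptoglobin, which binds free haemoglobin, was at 12.5, 15.8 and 11.8 CPM at day 0, 3064, 2589 and 4142 at day 4, and 765, 587 and 651 at day 8. Serpina3n, a protease inhibitor of the acute phase, was at 10.5, 9.47 and 14.4, then 552, 605 and 638, then 75.7, 65.1 and 199. Orm1, an acute-phase glycoprotein, and Lbp, which binds bacterial lipopolysaccharide, had midpoint differences of 4.60 ± 0.33 and 1.93 ± 0.29 (edgeR, adjusted p = 8.29e-06 and 0.000808). In Hp and Serpina3n no day 4 library overlapped the others.

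Agt, Ace and Npr1, of blood pressure hormone systems, also peaked. Agt, angiotensinogen, was at 17.7, 33.5 and 15.1 CPM, then 2565, 1266 and 2559, then 369, 452 and 527. Ace, which cleaves angiotensin, was at 51, 67.2 and 138, then 353, 631 and 432, then 40.3, 46.5 and 96.2. Npr1, the receptor of atrial natriuretic peptide, was at 0.487, 0.96 and 0.828, then 111, 47.7 and 93.7, then 9.77, 14.6 and 11. Il1r2, a decoy receptor of interleukin 1, rose from 1.4, 1.45 and 0.856 to 6.31, 14.7 and 10.5 and ended at 0.168, 0.107 and 0.644, below its start (adjusted p = 0.0116). Aldh1a1, which makes retinoic acid, peaked with a midpoint difference of 2.09 ± 0.21.

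A few genes were called in the second step and not in the first. Hmox1, haem oxygenase, was at 328, 367 and 378 CPM, then 383, 477 and 404, then 2908, 3348 and 2554. Gdf15, a stress hormone, was at 17.7, 9.97 and 13.3, then 11, 13.6 and 7.22, then 114, 117 and 71.1. Their first steps of 0.24 ± 0.15 and -0.36 ± 0.29 did not pass the test.

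The catalytic subunits that interferon brings into the proteasome had midpoint differences below 0, while 21 of the 31 listed subunits were above and 0 below. Psmb8 was at 21.7, 18.8 and 20.3 CPM, then 12.9, 17.7 and 12.4, then 32.6, 42.3 and 33.1, a value of -0.91 ± 0.14. Psmb9 and Psmb10 were at -0.93 ± 0.14 and -0.40 ± 0.10, whereas Psmb5, the constitutive counterpart of Psmb8, was at 0.27 ± 0.10 (adjusted p = 0.062), and was called at 0.39 without day 4 replicate 2. Tap1, which loads the peptides these subunits make, was at -0.65 ± 0.17. The difference between the subunit groups was not tested. Psma1, a core subunit, had the largest value of the proteasome list, at 122, 125 and 116, then 1166, 614 and 1010, then 963, 862 and 848 CPM. In the RefSeq table Psma1 lies near Pde3b, which was at 16.6, 14.2 and 11.7, then 460, 186 and 423, then 460, 497 and 451, with the same day 4 library lowest. Which features were counted is not given in the sources used here, and whether the 2 genes share reads was not tested, so the Psma1 value is uncertain.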
